A study of Mus musculus with 2 samples.

Results

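The genes described here are 10 of the 27031 genes counted in tumor leukocytes, all of them known to be induced by interleukin-4 (IL-4) in macrophages or to serve its receptor: *Il4ra*, *Mrc1*, *Mgl2*, *Clec10a*, *Retnla*, *Chil3*, *Ccl17*, *Ccl22*, *Ccl24* and *Pdcd1lg2*. The list was drawn up with earlier results of these data in view, and it was chosen by measured values among other things, namely levels in macrophages and differences between telmisartan and control. Its values are therefore given as a description, with no test. All 10 genes had counts.

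The study asked how telmisartan, an angiotensin receptor blocker given against high blood pressure, acts on the immune cells of a colorectal tumor. Female C57BL/6 mice of 6 to 8 weeks carried subcutaneous tumors of the MC38 colon carcinoma line and received vehicle (control) or 5 mg/kg telmisartan into the stomach daily from the time of implantation. Tumors were taken on day 13, and living CD45+ cells of 5 mice per group were sorted, pooled and labelled with Sample Tag 1 (control) or Sample Tag 2 (telmisartan). Both pools went into 1 capture on the BD Rhapsody system, which counts molecules (UMIs) per gene and cell. With 1 pool per group the spread between mice is unknown, so there is no test between the groups and no p-value. All intervals are 95% intervals that cover counting error alone.

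IL-4 and the related cytokine IL-13 bind a receptor that contains the IL-4 receptor alpha chain and switch on the transcription factor STAT6. In mouse macrophages STAT6 is known to raise genes for lectin receptors, secreted proteins, chemokines and a ligand of the T cell receptor PD-1, and this response is often called alternative activation. Some of these genes are also known to be made by dendritic cells.

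Of 20726 cells, 4535 control cells and 4434 telmisartan cells were kept, which is 8969 in all. Median depth was 8689 UMIs per control cell and 6357.5 per telmisartan cell. Macrophage-like cells numbered 4049 in the control pool (38135628 UMIs, median 8977) and 3999 in the telmisartan pool (28356533 UMIs, median 6463). Dendritic-like cells numbered 366 (2921179 UMIs, median 7593) and 298 (2065327 UMIs, median 6287.5). Levels are UMIs per 1000000 UMIs of the summed cells (CPM), with exact Poisson intervals, and are compared only within a gene.

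Macrophage-like cells fell into 7 states, called here by their leading genes against the rest of the class. M1 was led by *Dcstamp*, *Il1r2*, *Nr4a3*, *Tnfrsf9* and *Olr1*, and M2 by *Serpina3g*, *Cxcl9*, *Ly6i*, *Batf2* and *Iigp1*, which are mostly interferon-gamma response genes. M3 was led by *Cbr2*, *Ccl8*, *Serpinb6a*, *Folr2* and *Ms4a14*, and M4 by the type I interferon response genes *Rsad2*, *Slfn4*, *Isg15*, *Oasl1* and *Ifi213*. M5 was led by *Hmox1*, *Cxcl3*, *Fam71f2*, *Gpnmb* and *Agbl3*, M6 by the mitotic genes *Ccna2*, *Hmmr*, *Birc5*, *Ube2c* and *Prr11*, and M7 by the DNA replication genes *Ung*, *Cdca7*, *Cdc6*, *Uhrf1* and *Mcm5*. The states differed in depth, from a median of 2416 UMIs per cell in M4 and 3948 in M5 to 13257 in M6 and 13760 in M7. M2 held 1280 control and 336 telmisartan cells, whereas M1 held 695 and 1152 and M4 376 and 747, so the largest state was M2 in control and M1 in telmisartan.

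Dendritic-like cells fell into 3 states. D1 (471 cells) was led over all other cells by *Cd209a*, *Klrd1*, *Plet1*, *Kmo* and *Klri1*, but over the other dendritic-like cells by *Sirpb1c*, *Slc4a11*, *C1qa*, *Upp1* and *Sgk1*, of which *C1qa* is a macrophage marker. D2 (103 cells) was led by *Fscn1*, *Npr1*, *Cacnb3*, *Gm13546* and *Adcy6*, with *Ccr7* and *Cd200* as further markers of mature dendritic cells. D3 (90 cells) was led by *Gpr141b*, *Xcr1*, *Ccna2*, *Kif11* and *Spc24*, a mix of cross-presenting dendritic cell and cell cycle genes. The members took part in the clustering, so their levels across the states describe the clusters and are not independent of them.

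In macrophage-like cells all 10 members passed 100 UMIs over both pools, and 5 of them were at least 1.5 times lower with telmisartan: *Ccl24*, *Ccl17*, *Retnla*, *Mgl2* and *Pdcd1lg2*. None was at least 1.5 times higher. Over all 11073 genes with 100 UMIs, 2.23% were lower and 4.78% higher by that fold, and since these values helped to choose the members, nothing is read from the difference. The median log2 ratio of telmisartan over control was -0.92 for the members and -0.05 for all genes. The members' median was much smaller in size without doublet removal, without the 1 cell richest in a member and without M4. Those values are given with the processing. The count of 5 includes *Retnla*, whose ratio rests on 1 control cell, and is 4 without the 1 cell of each pool that holds the most UMIs of a member, an alternative added after the data were seen.

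In dendritic-like cells 7 members passed 100 UMIs, and *Retnla*, *Chil3* and *Ccl24* did not. *Mgl2* and *Ccl17* were at least 1.5 times lower with telmisartan, and 0 members were higher by that fold. Of 5832 genes, 3.34% were lower and 3.69% higher, again with nothing read from it. The median log2 ratio was -0.15 for the 7 members and -0.02 for all genes.

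**Figure D1:**
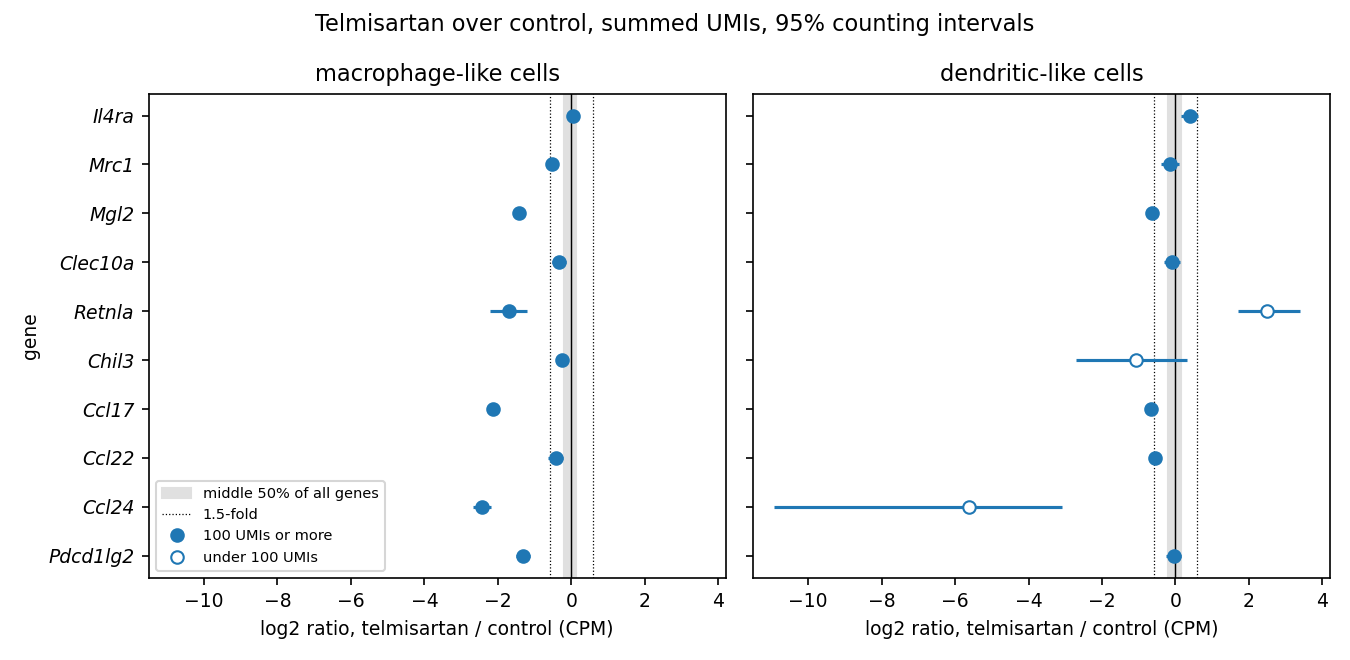
Log2 ratio of telmisartan over control for each gene (CPM of summed UMIs; bars, 95% counting intervals) in macrophage-like and dendritic-like cells, with the middle 50% of all genes in grey and dotted lines at 1.5-fold. In macrophage-like cells *Ccl24* (-2.42) and *Ccl17* (-2.13) lie farthest to the left and *Il4ra* (0.04) lies at 0; open points have under 100 UMIs.

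*Il4ra* encodes the receptor chain that binds IL-4. In macrophage-like cells it stood at 109.7 CPM (106 to 113) in control and 112 CPM (109 to 116) in telmisartan, a log2 ratio of 0.04 (-0.03 to 0.10). It had a UMI in 51.4% of control and 45.1% of telmisartan macrophage-like cells, against 30.6% and 18.6% of T-like cells, whose median depth was 3912 and 3001 UMIs. When every cell was thinned to 1000 UMIs, which left out 45 control and 72 telmisartan cells, the macrophage-like shares were 11.2% and 11.7%. The T-like shares were then 8.82% (3.31 to 18.2) and 6.80% (2.78 to 13.5), with intervals that hold the macrophage-like shares. These shares therefore do not set macrophage-like cells apart from T-like cells. In CPM, T-like cells stood at 121 in control, with 22 of the 53 UMIs in 1 cell. In telmisartan they stood at 64.1 CPM (42.9 to 92.0), below the macrophage-like level. The receptor gene was thus at nearly the same level in both macrophage pools.

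The sign of this ratio changed without scaling by depth, where UMIs per cell gave -0.37, and that setting moved the median of all genes to -0.45. In dendritic-like cells *Il4ra* was higher with telmisartan, at 111 CPM (99.2 to 124) in control and 146 CPM (129.7 to 163) in telmisartan. *Il4ra* had the flattest distribution of the 10 genes over both pools, from 78.1 CPM in M6 to 168 CPM (155 to 182) in M4. The next levels were 155 CPM in D2 (125 to 191), whose interval overlaps that of M4, and 133 CPM in both D1 and M3. In control alone D3 was lowest (61.6 CPM), and in telmisartan alone D2 (198 CPM) was above M4 (163 CPM). Within states the log2 ratio was 0.48 in M1 and 0.21 in M2 but -0.42 in M3, and its interval held 0 in M4, M5, M6 and M7.

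A list of 53 further genes of the pathway was used for context, of which 51 were counted, and *Clec7a* and *Ear11* were not analysed here. In macrophage-like cells 35 of them passed 100 UMIs, 1 was at least 1.5 times lower and 4 were higher, with a median log2 ratio of -0.04. Over all genes 2.23% were lower and 4.78% higher by that fold, and the difference was not tested. The lower one was *Ppargc1b*, a coactivator of nuclear receptors, at 7.34 and 4.80 CPM. The higher ones were *Kdm6b*, a histone demethylase (99.96 and 266 CPM), *Klf4*, a transcription factor (604 and 960.0 CPM), *Cd36*, a lipid scavenger receptor (68.5 and 113 CPM), and *Retn*, a relative of *Retnla* (41 and 71 UMIs). In dendritic-like cells 26 passed, 0 were lower and 4 were higher, namely *Kdm6b*, *Cd36*, *Irf4* and *Klf4*. There 3.34% of all genes were lower and 3.69% higher, again with no test. The list mixes signal, feedback, partner and paralog genes with other genes known to be induced by IL-4 in macrophages. Of these other induced genes, 12 passed 100 UMIs in macrophage-like cells, 0 were lower and 1 was higher by that fold, with a median of -0.23. In dendritic-like cells 9 passed, 0 were lower and 1 was higher, with a median of -0.26.

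The partner chains of the receptor gave log2 ratios of -0.28 for *Il13ra1* and -0.47 for *Il2rg* in macrophage-like cells. *Stat6* was at 112 and 113 CPM. Transcripts of the cytokines were near the limit of detection. *Il4* had 2 UMIs in control and 1 in telmisartan over all kept cells. *Il13* had 19 and 3 UMIs, 16 of them in 1 control cell, and the decoy receptor *Il13ra2* had 6 and 2 UMIs. Of 5 markers of basophils or mast cells, which are known to make IL-4, 4 were detected in control macrophage-like cells and 3 in telmisartan, with *Fcer1a* at 0 in both, and they summed to 16 and 8 UMIs.

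*Mrc1* encodes the mannose receptor CD206, an endocytic lectin. Its level in macrophage-like cells was 461 CPM (454 to 467) in control and 323 CPM (316 to 330) in telmisartan, 1.43 times lower and short of the 1.5-fold mark. A UMI was seen in 61.3% and 51.7% of macrophage-like cells, in 12.5% and 13.3% of T-like cells, and in 25.8% and 19.9% of macrophage-like cells after thinning. *Mrc1* was lower with telmisartan in each of the 7 macrophage states, with log2 ratios from -0.67 in M3 to -0.27 in M4 and no interval that held 0. The highest level was in M3, at 1001 CPM in control and 630.0 CPM in telmisartan. M3 stood well above M6 (434 CPM over both pools) and M7 (345 CPM), and the lowest level was 22.6 CPM in D2.

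*Mgl2* encodes a galactose-type lectin, CD301b. In macrophage-like cells it was at 424 CPM (417 to 431) in control and 159 CPM (154 to 164) in telmisartan, which is 2.67 times lower. A UMI was found in 46.7% and 29.7% of the cells, in 19.3% and 9.57% after thinning, and in 12.5% and 7.08% of T-like cells. The level was lower with telmisartan in every macrophage state. In M5, 109 and 106 UMIs gave -0.29 (-0.69 to 0.11), an interval that also allows a higher level. Elsewhere the log2 ratios ran from -0.73 in M1 to -1.89 in M7, the replication state. Dendritic-like cells carried more, at 2094 CPM (2042 to 2147) in control and 1357 CPM (1307 to 1408) in telmisartan, 1.54 times lower. D1 held the highest level (2123 CPM), followed by D3 (1440.3 CPM) and M7 (646 CPM), and M5 held the lowest (44.8 CPM).

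*Clec10a* encodes the close relative CD301a, whose gene lies 18646 bases from *Mgl2* on chromosome 11 (Mgl2 at chr11:70130329-70137550 and Clec10a at chr11:70156197-70170834, both on the plus strand of GRCm38). Despite this nearness the genes differed in size of change. *Clec10a* was at 18.1 CPM (16.8 to 19.5) in control and 14.4 CPM (13.03 to 15.9) in telmisartan macrophage-like cells, a log2 ratio of -0.33. A UMI was found in 12.03% and 8.002% of cells, against 4.17% and 0.885% of T-like cells, but thinned shares were 1.62% and 1.66%. In dendritic-like cells it was at 155 and 146 CPM, with an interval of the log2 ratio from -0.31 to 0.12 and 64 of the 454 control UMIs in 1 cell. D1 held the highest level, at 185 CPM (171 to 199), above D3 at 95.2 CPM (76.6 to 117), and over both pools every macrophage state was at 23.5 CPM or below.

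*Retnla* encodes the secreted protein RELM-alpha. In macrophage-like cells it had 182 UMIs in 24 control cells and 42 UMIs in 23 telmisartan cells, or 4.77 CPM (4.10 to 5.52) and 1.48 CPM (1.07 to 2.00). A single control cell of state M4 held 138 of the 182 UMIs. Without the top cell of each pool the log2 ratio moved from -1.69 to 0.14, and without M4 to 0.47, both alternatives added after the data were seen. The shares of cells with a UMI, 0.593% and 0.575%, were alike. No T-like cell had one, which with 72 and 113 cells allows shares of up to 4.99% and 3.21% by the exact interval.

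In dendritic-like cells *Retnla* had 16 UMIs in 3 control cells and 64 UMIs in 8 telmisartan cells, a log2 ratio of 2.50 (1.69 to 3.39) over very few cells. Of the other resistin-like genes in macrophage-like cells, *Retnlg* had 9 and 1 UMIs, *Retnlb* 1 and 0, and *Retn* 41 and 71. Across the states the level of *Retnla* followed single cells and gives no order.

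*Chil3* encodes the chitinase-like protein Ym1. It was at 128 CPM (124 to 131) in control and 108 CPM (104 to 111) in telmisartan macrophage-like cells. A UMI was seen in 19.8% and 17.2% of cells, in 7.39% and 6.72% after thinning, and in 2.78% and 1.77% of T-like cells. Few cells carried much of it, as the 1% of cells with the most UMIs held 39.3% of the UMIs in control and 43.7% in telmisartan. Its near-identical relative *Chil4*, whose reads could be confused with it, had 0 and 2 UMIs.

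The ratio of *Chil3* differed in sign between states. It was higher with telmisartan in M1, at 71.5 CPM in control and 151 CPM in telmisartan (log2 ratio 1.08, 0.93 to 1.22), and in M5 (0.54). It was lower in M3 (-0.25), M4 (-1.07), M6 (-1.32) and M7 (-0.55), and at 224 and 230.4 CPM in M2. After thinning, the shares of cells with a UMI were 4.32% in control and 8.25% in telmisartan in M1. They were nearly alike in M3 (2.18% and 2.17%), M4 (11.2% and 10.5%), M6 (3.74% and 3.58%) and M7 (6.47% and 6.82%). The lower ratios in these states were thus not seen as fewer cells with a UMI. With the states weighted alike in both pools the class ratio was 0.04 in place of -0.25. M2 held the highest level (225 CPM, 217 to 233), above M4 (196 CPM, 182 to 211), but in control cells alone M4 was highest, at 296 CPM. Dendritic-like cells had 18 and 6 UMIs.

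*Ccl17* encodes TARC, a chemokine that attracts T cells bearing CCR4. In macrophage-like cells it was at 67.0 CPM (64.4 to 69.6) in control and 15.3 CPM (13.9 to 16.9) in telmisartan, 4.37 times lower. It was carried by few cells, since the top 1% of cells held 74.6% of its UMIs in control and 74.9% in telmisartan. The richest cell had 230 UMIs in control and 63 in telmisartan. Any UMI was found in 7.58% and 3.73% of macrophage-like cells and in 5.56% and 3.54% of the shallower T-like cells, so this share alone is close to background. T-like cells stood at 9.14 and 79.5 CPM, with 33 of the 36 telmisartan UMIs in 1 cell. After thinning, 2.30% and 0.942% of macrophage-like cells had one, and 1.47% and 1.94% of T-like cells.

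The ratio of *Ccl17* was -2.26 in M1 and -2.37 in M2, the macrophage states with the most of it over both pools (72.2 and 68.2 CPM). In telmisartan alone M4 (22.9 CPM) was above M2 (15.5 CPM). The ratio was -2.73 in M6, and in M7 145 control and 3 telmisartan UMIs gave -4.42 (-6.71 to -2.84). In M4 69 and 54 UMIs gave -1.23. After thinning, however, 1 of 349 control and 6 of 706 telmisartan cells of M4 had a UMI, in the other order. Thinned shares were lower with telmisartan in M1 (4.17% and 1.48%), M2 (2.50% and 0.298%), M6 (3.21% and 1.49%) and M7 (4.12% and 1.14%). In M3 and M5, the macrophage states lowest in *Ccl17* over both pools (6.37 and 5.62 CPM), the interval held 0, while in telmisartan alone M7 was lowest (2.74 CPM). Dendritic-like cells had more, at 1877 CPM (1828 to 1927) in control and 1172 CPM (1126 to 1219.9) in telmisartan, 1.60 times lower. D1 was at 2043 and 1096 CPM. D2 went from 2163 to 1354 CPM and D3 from 1028 to 1321 CPM, but these states had fewer than 50 telmisartan cells, so no ratio is given for them. Over both pools D2 (1836 CPM, 1727 to 1950.5) was slightly above D1 (1660.4 CPM, 1618 to 1704).

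*Ccl22* encodes MDC, the other CCR4 ligand, and lies 58753 bases from *Ccl17* on chromosome 8 (Ccl22 at chr8:94745590-94751699 and Ccl17 at chr8:94810453-94812036, plus strand of GRCm38). It was above all a gene of D2, the *Fscn1* state, at 8946 CPM in control and 7196 CPM in telmisartan, with D1 at 843 and 429.6 CPM and D3 at 260.0 and 181 CPM. After thinning, D1 was at 836 and 380 CPM. D2 was then at 7263 and 7488 CPM and D3 at 173 and 289 CPM, both in the other order. In dendritic-like cells as a whole it was at 1688 CPM (1641 to 1736) and 1137 CPM (1091 to 1184), 1.48 times lower. A single control cell held 478 of the 4931 UMIs.

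In macrophage-like cells *Ccl22* was at 14.3 CPM (13.1 to 15.5) and 10.7 CPM (9.48 to 11.9). A UMI was found in 5.93% and 5.15% of them and in 6.94% and 2.65% of T-like cells, which puts the macrophage share near background. After thinning the macrophage-like shares were 0.874% and 0.968%, in the other order than the CPM. Without the 1% of cells with the most *Ccl22* UMIs the log2 ratio turned from -0.42 to 0.14. Within states its log2 ratio was -0.65 in M1 (201 and 159 UMIs), -1.33 in M2 (179 and 16) and -0.72 in M6 (70 and 33). In M5 23 and 13 UMIs gave -1.07 (-2.17 to -0.03), and the interval held 0 in M3, M4 and M7. Thinned shares ran the other way in M1 (1.01% and 1.48%). They were lower with telmisartan in M2 (0.625% and 0%), M5 (0.993% and 0.758%) and M6 (0.802% and 0.597%). Over the whole class *Ccl17* was past 1.5-fold and *Ccl22* was not, and the difference between these ligands was not tested. Their receptor gene *Ccr4* had 16 and 14 UMIs over all kept cells.

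*Ccl24* encodes eotaxin-2, which attracts eosinophils through CCR3. It had the lowest ratio of the members in macrophage-like cells, at 29.998 CPM (28.3 to 31.8) in control and 5.61 CPM (4.77 to 6.55) in telmisartan, a log2 ratio of -2.42 (-2.67 to -2.18). A UMI was found in 5.56% and 2.10% of cells, and in 1.92% and 0.560% after thinning. Of T-like cells, 3 of 72 had one in control (4.17%), so the control share alone is close to background. In telmisartan 0 of 113 had one, which allows up to 3.21% and so does not place the telmisartan share. After thinning, 0 of 68 and 0 of 103 T-like cells had one, which allows up to 5.28% and 3.52%. The top 1% of cells held 66.1% and 72.3% of the UMIs. M2 had the highest level, at 53.9 CPM in control and 16.6 CPM in telmisartan, followed in control by M7 (39.2 CPM) and in telmisartan by M5 (7.29 CPM). M7 had 97 and 1 UMIs, a log2 ratio of -5.42 (-10.74 to -2.91).

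The log2 ratio of *Ccl24* was -2.22 in M3, -3.03 in M6, -1.25 in M1 and -1.46 in M5, and in M4, with 14 and 13 UMIs, its interval held 0. Dendritic-like cells had 69 UMIs in control and 1 in telmisartan, but 61 of the 69 were in 1 cell. D2 and D3 had 0 UMIs, with Poisson upper limits of 6.43 and 3.86 CPM.

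*Pdcd1lg2* encodes PD-L2, a ligand of PD-1. In macrophage-like cells it was at 25.2 CPM (23.6 to 26.8) in control and 10.1 CPM (8.95 to 11.3) in telmisartan, which is 2.50 times lower. A UMI was found in 13.1% and 4.65% of macrophage-like cells, and in 2.47% and 0.917% after thinning. T-like cells had one more often, in 18 of 72 control cells and in 20.4% of telmisartan cells, and stood at 61.7 and 88.4 CPM, so the macrophage share is not above that of T-like cells and is not read as expression on its own. M2 was the macrophage state with the most, at 46.8 CPM in control and 25.4 CPM in telmisartan. The log2 ratio was -1.21 in M1, -0.88 in M2, -1.37 in M3 and -1.59 in M7 (41 and 6 UMIs). M6 was at 12.6 and 6.29 CPM, and in M4 and M5 the interval of the ratio held 0.

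In dendritic-like cells *Pdcd1lg2* was at 181 CPM (166 to 197) in control and 175 CPM (157 to 194) in telmisartan, a log2 ratio of -0.05 (-0.25 to 0.14). The shares of these cells with a UMI were 55.2% and 43.6%, and 15.3% and 11.9% after thinning. The difference between macrophage-like and dendritic-like cells was not tested. D2 held the highest level (425 CPM, 373 to 482), above D1 (160.0 CPM, 147 to 174) and D3 (97.3 CPM). The gene of the other PD-1 ligand, *Cd274*, was at 275 and 231 CPM in macrophage-like cells.

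**Figure D2:**
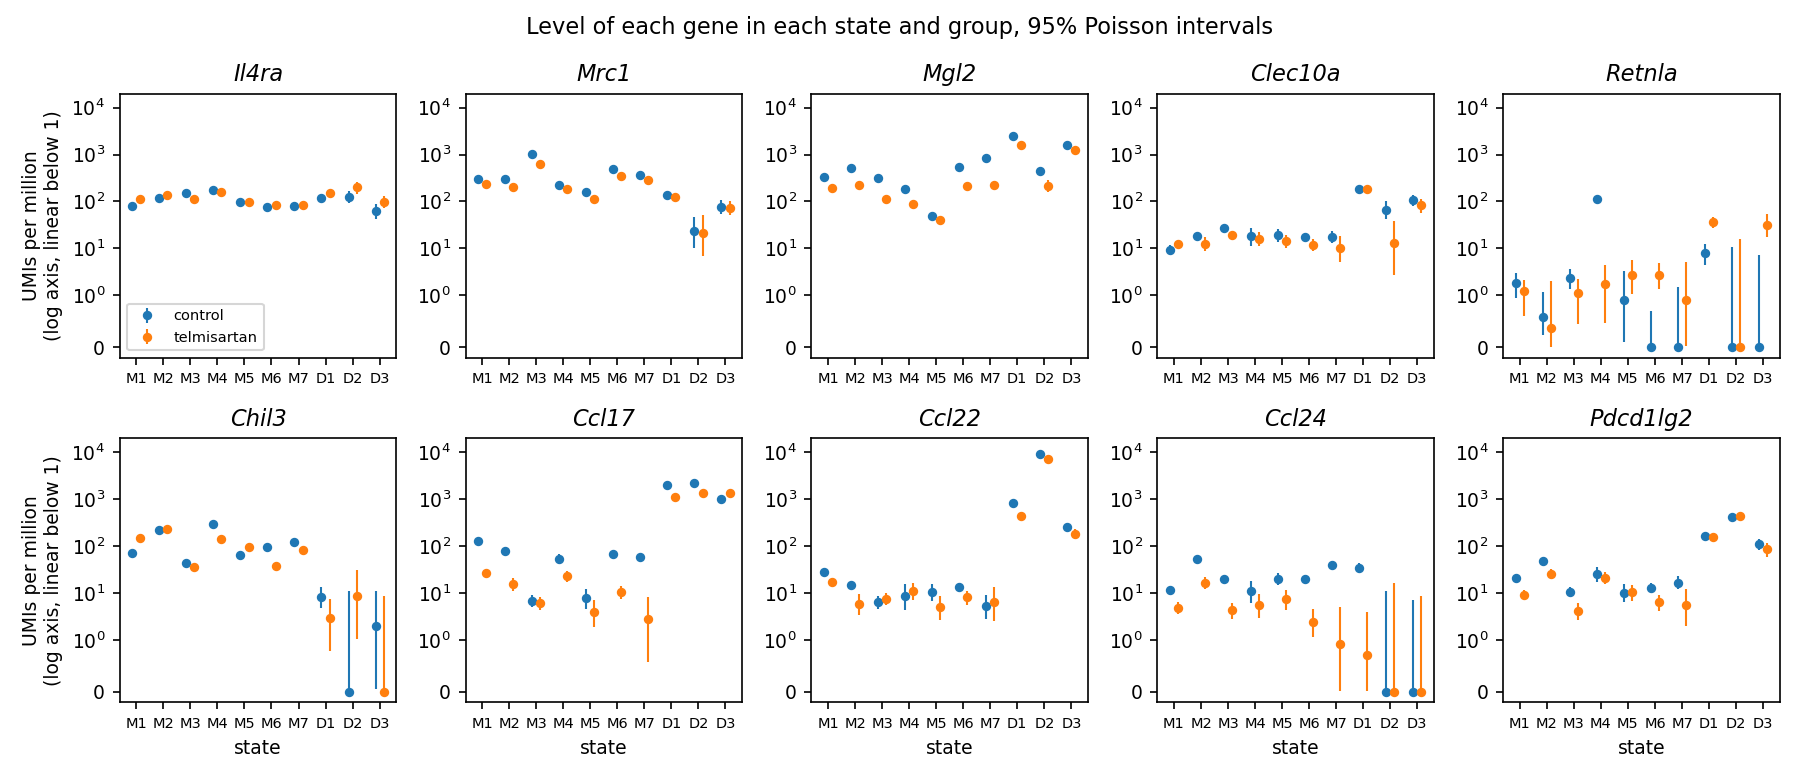
Level of each gene (CPM, log axis that is linear below 1) in the macrophage states M1 to M7 and dendritic states D1 to D3, control in blue and telmisartan in orange, with 95% Poisson intervals. *Mgl2*, *Ccl17*, *Ccl22*, *Clec10a* and *Pdcd1lg2* are highest in dendritic states, *Mrc1* is highest in M3 (1001 and 630.0 CPM), and the single high *Retnla* value in M4 rests on 1 cell.

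**Figure D3:**
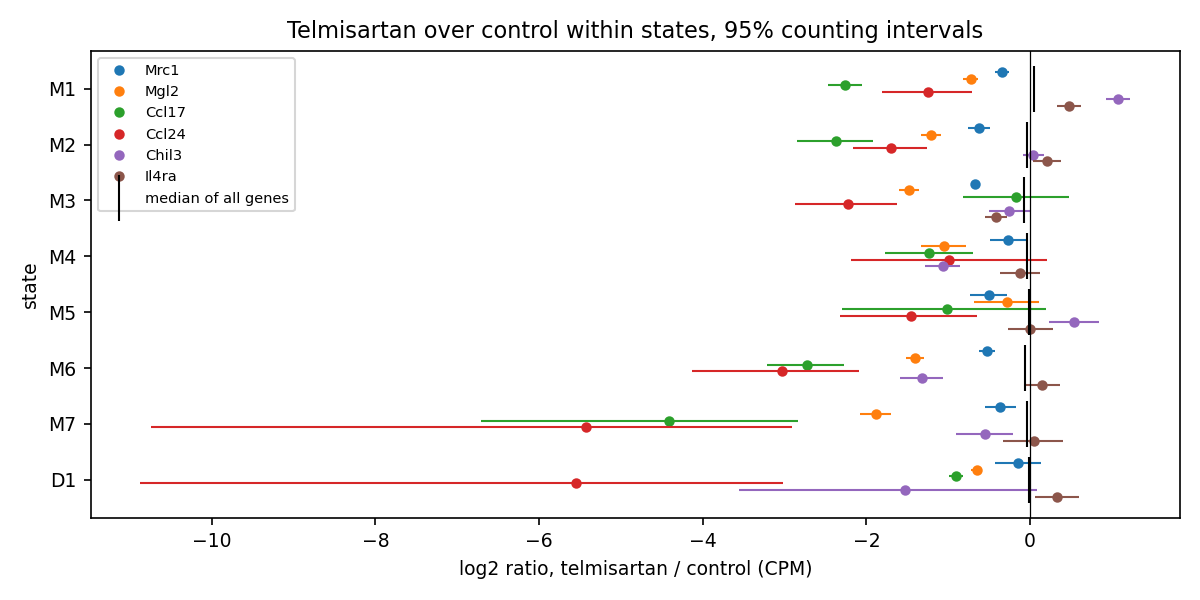
Log2 ratio of telmisartan over control within each state that held at least 50 cells of both pools (points; bars, 95% counting intervals) for 6 of the genes, with the median of all genes as a black line. *Mrc1*, *Mgl2*, *Ccl17* and *Ccl24* lie left of 0 in every state shown, some with intervals that hold 0, while *Chil3* runs from -1.53 in D1, over 17 and 4 UMIs, to 1.08 in M1.

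Lower values of several members were thus also seen inside single states. The states themselves came from the same cells, and differences inside a state were not tested. Some other gene lists moved with the pools in macrophage-like cells. The 6 interferon-gamma state markers, all detected and led by *Cxcl9* in control and *Cxcl10* in telmisartan, summed to 1796 and 1167 CPM. The 6 type I interferon state markers, all detected and led by *Slfn4*, summed to 171 and 452 CPM. The 3 markers of the MHC class II state, led by *H2-Ab1*, summed to 4947 and 3557 CPM. They include *Il1r2*, which is not an MHC gene and is a leading gene of M1. Sums of the Folr2, hypoxic inflammatory and Vcan macrophage lists are not given here.

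Markers of other cells were less different, with all 10 dendritic cell markers detected at a sum of 77.7 and 81.8 CPM (*Wdfy4* the most abundant), 7 of 7 neutrophil markers at 81.9 and 104 CPM (*Mmp8*) and 9 of 9 T cell markers at 12.6 and 14.7 CPM. The part of all these lists, and of the lower depth of the telmisartan cells, in the member values was not tested. A cluster of the class, led by *Hmox1*, *Cxcl3* and *Gpnmb* (363 control and 514 telmisartan cells), had 0 macrophage or monocyte markers and 1 neutrophil marker (*Mmp8*) among its 10 leading genes, but 2 markers of its own class (*Cxcl3*, *Nos2*) once those of macrophage states were counted. The wider count was adopted after this was seen, and without that cluster, an alternative added after the data were seen, 5 members were still at least 1.5 times lower and the median log2 ratio was -0.93.

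*Mgl2* was more often found in cells with a *Ccl17* UMI than in those without, a pair singled out after its values were seen. After thinning, 92 control macrophage-like cells had a *Ccl17* UMI, and 46.7% of them also had one of *Mgl2*, against 18.6% of the cells without *Ccl17*. In telmisartan there were 37 such cells, with 29.7% and 9.38%. Among dendritic-like cells the shares were 73.1% and 47.3% in control and 60.5% and 37.2% in telmisartan. This tie was seen in both pools and both classes, and it is a description of cells of 1 capture. The shares are taken over all states of a class, and the states differ in the levels of both genes. The part of this mix of states in the tie was not tested.

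Over the 10 states, *Ccl22* and *Pdcd1lg2* were the members most alike in their levels, with a Pearson r of log2(CPM + 1) of 0.947, and *Ccl17* and *Pdcd1lg2* had 0.925. Among 10191 other genes the pattern of *Ccl17* was most like those of *Irf4* (0.974), *P2ry10* and *Sub1*, and that of *Ccl22* most like *Sema7a*, *Slc41a1* and *Tbc1d4*. *Pdcd1lg2* was nearest to *Zfp800*, *Trim39* and *Jak2*, *Mrc1* to *Nxpe5*, *Camk1* and *Tspan4*, and *Mgl2* to *Sfxn2*, *Sh3bgrl3* and *Eif3k*. *Clec10a* was nearest to *Gm44511*, *Ffar2* and *Plet1*, *Chil3* to *Il17ra*, *Cmklr1* and *Dmxl2*, and *Ccl24* to *Ugt1a7c*, *C1rl* and *Fam207a*. *Il4ra* was nearest to *Camta2*, *Rnf111* and *Sbno2*, and *Retnla*, with its few cells, to *Cdk11b*, *Ifitm3* and *Apba1*. The states share 1 capture and differ in depth, and with 10 points among so many genes high values are common.

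The promoters were searched for TTC and GAA with 4 bases of any kind between them, the spacing that STAT6 is known to prefer, and with 3 bases between them, the spacing of other STAT factors. Both motifs read alike on either strand. RefSeq promoters (GRCm38.p6, 250 bases before to 50 after the start) were matched by symbol for 8 members, which leaves *Ccl24* and *Clec10a*. The motif with 4 bases was present in 3 of the 8 (*Ccl17*, *Pdcd1lg2* and *Retnla*), in 6.95% of 32851 promoters and in 8.01% of 27025 genes. The motif with 3 bases was present in 2 (*Ccl17* and *Chil3*), in 8.30% of promoters and in 9.55% of genes. *Mrc1*, *Mgl2*, *Ccl22* and *Il4ra* had neither. The promoters of *Ccl17* (chr8:94810203-94810452) and *Pdcd1lg2* (chr19:29410669-29410918) are shown because both genes were lower in macrophage-like cells and hold the motif with 4 bases. *Retnla* meets both conditions too, but its RefSeq start lies inside the gene as annotated in GENCODE M21, so its promoter is not printed. Only the 250 bases before the start are given, 5′ to 3′ on the plus strand of GRCm38.p6, with the matches to both motifs in capitals. In *Ccl17* the motif with 4 bases starts at -154 from the gene's start and the motif with 3 bases at -99, and in *Pdcd1lg2* the motif with 4 bases starts at -82. A match is a string of letters in this window and not a measured binding site.
Ccl17: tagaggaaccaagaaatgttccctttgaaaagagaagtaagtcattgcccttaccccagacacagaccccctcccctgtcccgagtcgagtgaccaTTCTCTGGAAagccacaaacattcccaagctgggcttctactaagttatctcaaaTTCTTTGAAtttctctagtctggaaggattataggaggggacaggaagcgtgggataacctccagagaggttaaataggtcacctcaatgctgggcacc
Pdcd1lg2: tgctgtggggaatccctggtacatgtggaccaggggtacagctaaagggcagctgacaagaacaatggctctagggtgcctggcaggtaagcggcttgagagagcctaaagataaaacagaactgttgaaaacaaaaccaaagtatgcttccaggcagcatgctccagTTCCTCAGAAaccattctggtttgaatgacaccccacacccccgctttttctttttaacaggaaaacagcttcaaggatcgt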

How the data were processed

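The deposited counts are UMIs per gene and cell that the authors obtained with the BD Rhapsody pipeline (version 1.11, GRCm38, GENCODE M19), after its correction of UMI errors, with Sample Tag read counts per cell. Cells with at least 75% of at least 10 tag reads in 1 tag were assigned to it, which left out 1580 multiplets and 186 cells with few reads. Cells with 150 to 5000 genes and at most 20% mitochondrial UMIs were kept, 58.1% of tagged control and 47.3% of tagged telmisartan cells. Scrublet's own threshold marked 0 doublets, so the 942 cells with the highest scores, the share of same-tag doublets predicted from the tags (9.51%), were removed. Clustering used Seurat 5.3.0 in R 4.3.3 with 2000 variable genes, 30 components, 20 neighbours and resolution 0.5 (13 clusters). Macrophage-like clusters were clustered again at 0.45 and dendritic-like ones at 0.05. UMIs were summed per pool and class in Python 3.11.15 (pandas 2.3.3, numpy 2.4.6, scipy 1.17.1, scanpy 1.11.5). Ratios have exact conditional binomial intervals, shares Clopper-Pearson intervals and sums exact Poisson intervals. A gene was counted as lower or higher at a fold of 1.5 with at least 100 UMIs over both pools. edgeR 4.0.16 gave an alternative scaling (TMM), with no test.

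The genes named were the 10 members, of the pathway list the ligands, receptor chains, *Stat6* and any gene past the fold in macrophage-like cells, the 5 leading genes of each state, and the 3 genes (at least 200 UMIs) most like each member by Pearson r. *Irf4* in dendritic-like cells, *Cd274*, *Ccr4*, *Ccr7*, *Cd200*, *Chil4*, *Retnlg*, *Retnlb* and the most abundant markers of each list were named after their values were seen. A further gene of the pathway list is not reported here. The members and lists were chosen with earlier results of these data known. Alternatives changed tag share, gene and mitochondrial limits, doublet removal, scaling, the log scale, thinning, the richest cells, the resolution, the mix of states, the genes used for clustering, the minimum UMIs and the fold. Motif searches used RefSeq promoters of GRCm38.p6, and gene positions are from GENCODE M21.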

Additional observations from a re-analysis of the deposited data

Results flagged for a closer look

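Between macrophage-like and dendritic-like cells, or among states with at least 50 cells of both pools, 4 members had a ratio above 0 in one place and below 0 in another with both intervals clear of 0, and each difference was not tested. *Retnla* had a log2 ratio of telmisartan over control of -1.69 in macrophage-like cells, resting on 1 control cell, and 2.50 in dendritic-like cells, over 3 control and 8 telmisartan cells. Within states it was -6.04 in M4, which holds that control cell, and 2.20 in D1. *Chil3* was at -1.32 in M6 and 1.08 in M1. Its thinned shares of cells were 3.74% in control and 3.58% in telmisartan in M6, and 4.32% and 8.25% in M1. *Clec10a* was at -0.56 in M2 and 0.46 in M1. *Il4ra* was at -0.42 in M3 and 0.48 in M1.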

How the results depend on the processing

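No paired analysis was possible because there was 1 pool per group. In macrophage-like cells the count of members at least 1.5 times lower with telmisartan was 5, and 4 to 6 under all alternatives but UMIs per cell without scaling, where it was 9 and the median of all genes was -0.45. In dendritic-like cells it was 2, but 3 with 90% of tag reads and without scaling, 1 on the ln scale and 0 at a fold of 2. The count of members higher was 0 in all alternatives of both classes. In the main setting 2.23% of all genes were lower by that fold in macrophage-like cells and 3.34% in dendritic-like cells. In macrophage-like cells the share of all genes lower or higher stayed within 1.5 times its main value in 12 settings and moved further in 2. In dendritic-like cells it stayed in 7 and moved in 4. The share is not given for each alternative, so nothing is read from these counts. The cause of the changes was not tested here or below.

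The median log2 ratio of the members in macrophage-like cells, -0.92, became -1.16 with 90% of tag reads, -0.45 without doublet removal, -1.33 without scaling, -0.37 on the ln scale and -0.75 after thinning to 1000 UMIs. It was -0.52 without the 1% of cells with the most UMIs of a member and -0.77 with states weighted alike. It was -0.55 without the 1 cell with the most UMIs and -0.48 without M4, both chosen after seeing the data. *Retnla* then turned from -1.69 to 0.14 and 0.47. In dendritic-like cells the median, -0.15, became -0.30 with a mitochondrial limit of 10%, -0.29 without doublet removal, -0.36 without scaling, -0.31 as a mean over cells of scaled UMIs and -0.31 after thinning.

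Over the alternatives in macrophage-like cells the log2 ratio ran from -0.92 to -0.35 for *Mrc1*, -1.82 to -0.93 for *Mgl2*, -0.74 to -0.24 for *Clec10a*, -3.04 to 0.47 for *Retnla*, -0.66 to 0.04 for *Chil3*, -2.54 to -1.08 for *Ccl17*, -1.09 to 0.14 for *Ccl22*, -2.83 to -1.55 for *Ccl24*, -1.74 to -0.93 for *Pdcd1lg2* and -0.37 to 0.14 for *Il4ra*. In dendritic-like cells it ran from -0.86 to -0.44 for *Mgl2*, -0.91 to -0.59 for *Ccl17*, -1.07 to -0.27 for *Ccl22*, -0.36 to -0.02 for *Mrc1*, 0.19 to 0.48 for *Il4ra*, 1.97 to 4.41 for *Retnla* and -5.81 to -3.07 for *Ccl24*. It crossed 0 for *Clec10a* (-0.30 to 0.26), *Pdcd1lg2* (-0.25 to 0.07) and *Chil3* (-1.29 to 0.90).

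The state with the highest level changed for *Il4ra*, *Retnla*, *Chil3* and *Ccl17* under at least 1 alternative. Limits are 1 pool per group, unequal depth and 1 capture. Shares were near or below those of T-like cells for *Ccl17*, *Ccl22*, *Pdcd1lg2*, after thinning *Il4ra*, and in control *Ccl24*. Many UMIs were held by few cells for *Retnla*, *Chil3*, *Ccl17*, *Ccl22* and *Ccl24*.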

Other observations

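Cells with over 20% mitochondrial UMIs, which entered no comparison, numbered 3586 in control and 5373 in telmisartan, and their class is unknown. In them *Retnla* was at 118 CPM in control and 44.8 CPM in telmisartan (251 and 156 UMIs), in 40 and 36 cells, with at most 89 and 22 UMIs in 1 cell. *Mgl2* was at 303 and 168 CPM, *Ccl17* at 138 and 67.8 CPM and *Ccl24* at 33.5 and 7.75 CPM. *Il4ra* was at 184 and 131 CPM in these cells, lower with telmisartan, while in the kept macrophage-like cells it was at 109.7 and 112 CPM. The difference between these sets of cells was not tested.

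Among the 74 control and 16 telmisartan cells with over 5000 genes, *Ccl17* was at 50.9 and 238 CPM, but single cells held 59 of the 99 control UMIs and 54 of the 97 telmisartan UMIs.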
